A study of Mus musculus with 7 samples.

Results

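The genes described here encode collagen IV, the nidogens and the proteoglycans of the basement membrane. They were taken by gene symbol from the annotation of the array, as 9 of 16565 named genes, and each of the 9 was read by 1 array feature. They are the collagen IV chain genes Col4a1, Col4a2, Col4a5 and Col4a6, the collagen XVIII gene Col18a1, the nidogen genes Nid1 and Nid2, the perlecan gene Hspg2 and the agrin gene Agrn. Palatal shelves, the paired outgrowths that form the secondary palate, came from 7 C57BL/6 embryos at E13.75. The wild-type group has 3 embryos. The other 4 embryos, Adamts9+/-:bt/bt, had 1 copy of Adamts9 missing and the belted allele (bt) of Adamts20 on both chromosomes. Each embryo gave 1 Illumina array of total RNA, the tissue received no treatment, and the labels do not say whether the groups were littermates.

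Basement membranes are thin sheets of matrix under epithelia and around blood vessels, nerves and muscle fibres. Collagen IV chains wind into trimers that form a network, laminins form a network of their own, and nidogens and perlecan bind to both. Col4a1 and Col4a2 encode the chains of the widespread trimer, whereas Col4a5 and Col4a6 form a trimer found in fewer tissues. Perlecan, agrin and collagen XVIII carry heparan sulfate chains that bind growth factors. The proteases lost in part here, ADAMTS9 and ADAMTS20, are related enzymes of the extracellular space, and versican is a substrate of both.

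The arrays differed in overall signal. The upper quartile of deposited intensity ran from 230.1 to 269.8 in wild type and from 185 to 216.5 in the mutants, and the median detected feature was 1.15 times as bright in wild type. Quantile normalization removes such a shift, so every difference below is relative to the other features on the array. Pearson correlations over detected features, which are not independent replicates, were 0.993 to 0.994 among mutant arrays, 0.982 to 0.993 among wild-type arrays and 0.948 to 0.977 between the groups. Wild-type replicate 3 lay closer to the mutants than the other wild-type arrays did for many features. Among features that passed the test, its value was the nearest of the wild-type arrays to the mutant mean in 60.6%. All 12 palate mesenchyme markers and all 11 epithelium markers on the array were detected, as were 10869 of all 18116 features. Detected here means a mean above the 40th percentile, 6.10 log2 units. Tbx22 (means of 6.097 in wild type and 6.22 in the mutants) and Pax9 (6.18 and 6.20), both mesenchyme markers, lay near that limit.

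The starts of the collagen IV genes show how these genes are arranged in pairs, and the stretches before the starts of 2 genes that fell, Col4a5 and Nid1, and of 2 that did not pass the test, Hspg2 and Agrn, are shown for comparison. All are from RefSeq, build GRCm38.p6, where 8 of the 9 genes matched and Nid2 has no entry. Col4a1 and Col4a2 are transcribed away from each other on chromosome 8. Their annotated starts overlap by the 22 bases at chr8:11312805-11312826, shown once for each strand with no motif marked:
Col4a1, minus strand: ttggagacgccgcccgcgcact
Col4a2, plus strand: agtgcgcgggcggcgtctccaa
Col4a5 and Col4a6 are also transcribed away from each other on chromosome X, with starts 1343 bases apart. Below are the bases before the outermost annotated start of Col4a5 (chrX:141475169-141475369, plus strand), Nid1 (chr13:13437352-13437601, plus strand), Hspg2 (chr4:137468553-137468750, plus strand) and Agrn (chr4:156197534-156197738, minus strand), with matches to the motif GGGCGG, to the motif CCAAT or to the motif TATAAA on either strand in capitals:
Col4a5: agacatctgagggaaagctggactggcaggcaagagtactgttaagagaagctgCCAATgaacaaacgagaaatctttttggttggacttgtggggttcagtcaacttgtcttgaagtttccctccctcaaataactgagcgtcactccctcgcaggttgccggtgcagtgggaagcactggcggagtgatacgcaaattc
Nid1: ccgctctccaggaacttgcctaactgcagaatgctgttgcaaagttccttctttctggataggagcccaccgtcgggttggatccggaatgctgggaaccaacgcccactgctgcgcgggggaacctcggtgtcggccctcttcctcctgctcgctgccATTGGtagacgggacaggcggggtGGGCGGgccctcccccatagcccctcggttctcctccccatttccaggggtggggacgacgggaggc
Hspg2: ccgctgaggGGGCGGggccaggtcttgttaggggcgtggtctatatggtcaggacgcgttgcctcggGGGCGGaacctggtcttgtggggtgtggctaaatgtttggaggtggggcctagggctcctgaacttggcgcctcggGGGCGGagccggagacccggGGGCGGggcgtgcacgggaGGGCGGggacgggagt
Agrn: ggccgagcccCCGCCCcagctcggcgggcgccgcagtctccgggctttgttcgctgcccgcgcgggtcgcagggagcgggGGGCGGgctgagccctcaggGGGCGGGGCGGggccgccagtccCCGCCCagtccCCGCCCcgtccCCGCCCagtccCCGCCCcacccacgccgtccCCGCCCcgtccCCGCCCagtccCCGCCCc
These motifs are known from many core promoters, a match is only a match of letters, and matches of 1 motif may overlap. Matches were counted in the 250 bases before the start given in the RefSeq table, which can lie inside that outermost start. The 22 bases shared by Col4a1 and Col4a2 lie within both genes and were not counted, though they hold a GGGCGG. Col4a1, Col4a2, Col4a5 and Nid1 each held 1 CCAAT, and Col4a6, Hspg2 and both annotated starts of Agrn held 0. GGGCGG was counted 5 times before Hspg2 and 12 times before the upstream start of Agrn but 2 times before its other start, beside 0 before Col4a1, 2 before Col4a2 and 1 each before Col4a5, Col4a6 and Nid1. Col18a1 has 2 annotated starts, and the upstream one held 3 GGGCGG and 1 CCAAT whereas the other held 0 of each. TATAAA was found 0 times before any of them. Over all 32851 RefSeq starts in the table, 32.7% held GGGCGG, 33.8% CCAAT and 12.4% TATAAA in the same length. A link between these matches and the differences below was not tested.

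The comparison of mutant with wild type asks which basement membrane genes differ in shelves that lack part of this proteolytic activity. Transcripts of collagen IV and of both nidogens fell in the mutant shelves, whereas perlecan and agrin did not pass the test. Of the 9 genes, 8 passed the filter on dim features, which takes the mean over all 7 arrays. Col4a1, Col4a2, Col4a5, Nid1 and Nid2 were lower by limma at an adjusted p of 0.05 and 0 were higher. Over all 10869 detected features, 19.8% were called lower and 16.9% higher, together 36.8%, so calls were common in this comparison. The median log2 difference of the 8 detected genes was -0.42, beside -0.0034 over all detected features.

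Col4a1, which encodes the alpha 1 chain of the widespread collagen IV trimer, read 11.21, 11.38 and 10.87 log2 units in wild-type replicates 1 to 3. In mutant replicates 1 to 4 it read 10.48, 10.47, 10.37 and 10.32. All mutant values lay below all wild-type values, and wild-type replicate 3 was the lowest of its group. The means were 11.15 ± 0.26 (SD, n = 3) and 10.41 ± 0.08 (SD, n = 4), a log2 difference of -0.75 (SE 0.11, 95% interval -1.0 to -0.49, limma adjusted p = 0.00107). This is a level 1.68-fold lower in the mutants. Among detected features 2.74% fell further.

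Col4a2, the gene of the alpha 2 chain, showed the largest fall of the 9. It read 11.08, 11.11 and 10.71 in wild type and 9.87, 9.82, 9.61 and 9.63 in the mutants. The groups were separated by 0.85 log2 units between the lowest wild-type and the highest mutant value. The means were 10.97 ± 0.22 (SD, n = 3) and 9.73 ± 0.13 (SD, n = 4), which is 2.35-fold lower (log2 difference -1.24, SE 0.11, 95% interval -1.49 to -0.98, adjusted p = 0.000116). Only 0.368% of detected features fell further. On the intensity scale as deposited, Col4a2 was 2546.2, 2638.1 and 1697.2 in wild type and between 636.1 and 942.7 in the mutants.

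Col4a5, the alpha 5 chain gene whose human counterpart is mutated in Alport syndrome, was dimmer and moved less. Its values were 7.22, 7.04 and 7.02 in wild type against 6.82, 6.71, 6.85 and 6.79 in the mutants. The groups did not overlap and were 0.17 log2 units apart at their nearest. Col4a5 thus changed by -0.30 log2 units (SE 0.07, 95% interval -0.45 to -0.14), with an adjusted p of 0.00883 in limma, which was larger than the SD of 0.11 in wild type (n = 3) and 0.06 in the mutants (n = 4). Col4a6, the gene of its partner chain alpha 6, lay at the detection limit of 6.10 and got no call. It read 6.13, 6.19 and 6.18 in wild type and 6.00, 6.10, 5.99 and 5.99 in the mutants, a log2 difference of -0.14 (exact permutation p = 0.0571). The remaining chains, Col4a3 and Col4a4, were below the limit, with means of 5.95 and 6.03 in wild type and 5.87 and 5.98 in the mutants.

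Nid2, which encodes nidogen 2, read 9.44, 9.09 and 9.0 in wild type and 8.33, 8.52, 7.94 and 8.32 in the mutants. Every mutant array lay below every wild-type array, with mutant replicate 3 the lowest. Nid2 fell by 0.90 log2 units (SE 0.14, 95% interval -1.23 to -0.57, adjusted p = 0.00159), or 1.86-fold lower, and 1.54% of detected features fell further.

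Nid1, the gene of the nidogen first known as entactin, read 9.12, 9.14 and 8.86 in wild type and 8.42, 8.58, 8.14 and 8.88 in the mutants. Here the groups overlapped, since mutant replicate 4 lay just above wild-type replicate 3. Nid1 thus differed by -0.53 log2 units (SE 0.16, 95% interval -0.89 to -0.18), which passed in limma (adjusted p = 0.0273), and the exact permutation p over the 35 splits of the arrays was 0.0857. Leaving out single arrays changed the Nid1 call in 3 of 7 cases. It did not pass when wild-type replicate 1 was left out (-0.49, adjusted p = 0.0906), nor when wild-type replicate 2 (-0.48, adjusted p = 0.0835) or mutant replicate 1 was (-0.50, adjusted p = 0.0633). By permutation Col4a1, Col4a2, Col4a5 and Nid2 reached 0.0286, the smallest exact p that 35 splits can give. These 4 were the detected genes of the set whose groups did not overlap in the downward direction, against 22.9% of all detected features, and 0 were separated upward, against 19.7%.

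Col18a1, the gene of a heparan sulfate collagen whose C-terminal fragment is endostatin, read 10.19, 10.36 and 10.07 in wild type. It read 10.08, 10.07, 9.85 and 9.78 in the mutants, and the groups touched at wild-type replicate 3 and mutant replicates 1 and 2. The log2 difference of -0.26 (SE 0.10, 95% interval -0.48 to -0.03) did not pass (adjusted p = 0.0718). It passed without wild-type replicate 3 (-0.33, adjusted p = 0.035) and with arrays centred on their medians (-0.52, adjusted p = 0.0175).

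Hspg2, which encodes perlecan, read 9.23, 9.15 and 8.96 in wild type and 9.09, 9.28, 8.99 and 9.10 in the mutants. The ranges overlapped almost fully. Hspg2 differed by 0.0026 log2 units (SE 0.09, 95% interval -0.20 to 0.20), with an adjusted p of 0.986, so a change beyond 0.20 in either direction lies outside the interval under quantile normalization. Agrn, the gene of agrin, which clusters acetylcholine receptors at the neuromuscular junction, read 12.33, 12.41 and 12.40 in wild type and 12.39, 12.39, 12.24 and 12.24 in the mutants. Agrn differed by -0.07 log2 units (SE 0.06, 95% interval -0.21 to 0.08), with an adjusted p of 0.465. Median centring makes the median over all features, dim ones included, equal between arrays. The median difference over detected features was then -0.14. In that setting Agrn passed as lower (-0.31, or -0.17 relative to the median of detected features, limma adjusted p = 0.0223). Hspg2 did not (-0.32, or -0.18 relative to it, limma adjusted p = 0.0656). Relative to the same median of detected features Col4a2 was -1.38, Nid2 -1.07, Col4a1 -0.86, Nid1 -0.72, Col18a1 -0.38 and Col4a5 -0.31.

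**Figure D1:**
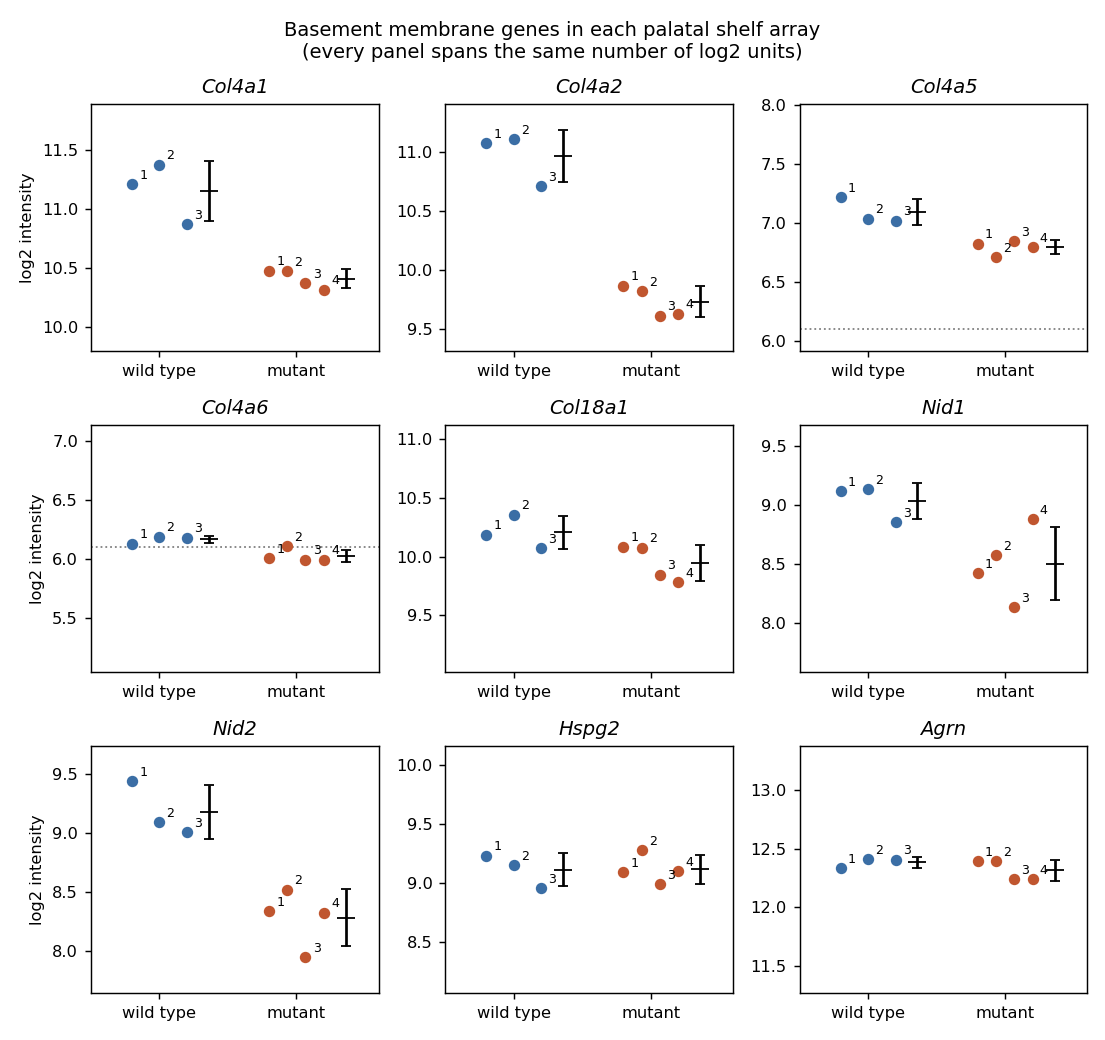
Normalized log2 intensity of the 9 genes in each array, with wild type in blue and Adamts9+/-:bt/bt in orange, replicate numbers beside the points, black bars for the mean ± SD (n = 3 and n = 4) and a dotted line at the detection limit of 6.10 where it falls in the panel. Col4a1, Col4a2, Col4a5 and Nid2 separate the groups, Nid1 and Col18a1 overlap at wild-type replicate 3, Hspg2 and Agrn overlap, and Col4a6 lies at the limit.

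The fall of Col4a2 exceeded that of Col4a1 by 0.49 log2 units, measured within each array, and by 0.46 to 0.54 under the 16 alternatives. The exact permutation p was 0.0286, the smallest that 35 splits allow. Adjusted over 4 pairs it was 0.114, and a single pair at that smallest p cannot pass 0.05 after this adjustment, so the adjusted value says nothing for or against a difference. The difference of Nid1 minus that of Nid2 was 0.37 (exact permutation p = 0.0571, adjusted p = 0.114). Col4a5 against Col4a6 gave -0.16, given as a description because Col4a6 lay at the detection limit. For Hspg2 against Agrn the difference was 0.07 (exact permutation p = 0.629, adjusted p = 0.629). The collagen IV pair was separated without overlap between the groups, with an SD of 0.07 in wild type (n = 3) and 0.06 in the mutants (n = 4).

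**Figure D2:**
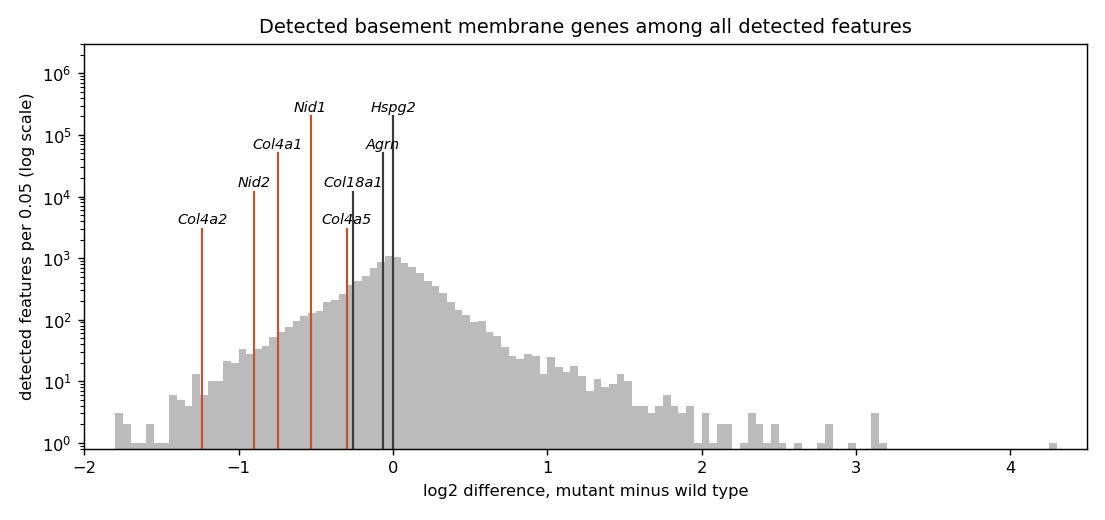
Distribution of the log2 difference, mutant minus wild type, over the 10869 detected features (grey bars, log axis), with a line for each of the 8 detected genes whose height only spaces the names. Orange lines passed the limma test and dark lines did not, and Col4a2 lies at -1.24 in the lower tail whereas Agrn and Hspg2 lie at the centre.

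Wild-type replicate 3 was the lowest wild-type array for 7 of the 9 genes (Agrn and Col4a6 were the others), against 41.5% of detected features. With that array as the only wild type, where its spread is assumed to equal that of the mutants, 3 of the 9 genes passed as lower. Col4a2 (-0.99, adjusted p = 0.00229), Col4a1 (-0.45, against -0.75 with all arrays, adjusted p = 0.0166) and Nid2 (-0.72, adjusted p = 0.0352) passed, whereas Nid1 (-0.35, adjusted p = 0.355) and Col4a5 (-0.21, adjusted p = 0.142) did not.

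The authors' own log2 table of these arrays gave nearly the same differences. There Col4a2 differed by -1.25, Nid2 by -0.92, Col4a1 by -0.75, Nid1 by -0.55, Col4a5 by -0.32, Col18a1 by -0.26, Agrn by -0.06 and Hspg2 by 0.0029. On the intensity scale as deposited, which carries the overall dimming, the ratio of wild type to mutant was 2.98 for Col4a2, 2.44 for Nid2, 2.1 for Col4a1 and 1.89 for Nid1. It was 1.27 for Agrn and 1.30 for Hspg2, against a median of 1.15 over detected features. Both genes lay above the upper quartile of every array, which was 230.1 to 269.8 in wild type and 185 to 216.5 in the mutants. The median ratio is thus no measure for features as bright as these, and whether they dimmed more than such features was not tested. On that scale 7 of the 9 genes had every mutant array below every wild-type array, as did 37.1% of detected features.

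Other genes of the basement membrane were counted from lists of its components, assembly enzymes and receptors, with 1 feature per gene, where 19.8% of 10087 genes were called lower and 17.1% higher. Laminin chains, the other network of the basement membrane, had 3 of 7 detected genes lower and 0 higher, with a median log2 difference of -0.15 and a median of -0.0020 over all genes. The beta chain genes Lamb3 (-0.99, SE 0.13) and Lamb2 (-0.94, SE 0.11) and the gamma chain gene Lamc1 (-0.45, SE 0.10) fell. Lamb1, the beta chain gene of the common embryonic laminins, differed by 0.02 (SE 0.07, adjusted p = 0.893) and was chosen after its values were seen.

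Further basement membrane proteins had 6 of 12 detected genes lower and 0 higher, with a median of -0.23. Fras1, whose product anchors the basement membrane of embryonic epithelia and which causes Fraser syndrome when lost, fell by 0.53 (SE 0.06, adjusted p = 0.000262). Fbln2 and Fbln1, the genes of fibulins that bind nidogen and other matrix proteins, fell by 0.57 (SE 0.06) and 0.53 (SE 0.10). Tgfbi, a secreted matrix adhesion protein, fell by 0.39 (SE 0.10). Col15a1, the close relative of Col18a1, fell by 0.58 (SE 0.16, adjusted p = 0.0213), a gene chosen after its values were seen. The list had 3 genes lower without wild-type replicate 1, 3 without mutant replicate 3, and 3 with wild-type replicate 3 standing alone for its group.

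Genes that fold, modify and export collagen chains had 9 of 19 detected genes lower and 1 higher, with a median of -0.21. The prolyl 3-hydroxylase family gene P3h3 fell by 0.84 (SE 0.10, adjusted p = 0.000377), and the prolyl 4-hydroxylase subunit genes P4ha3 and P4hb fell by 0.70 (SE 0.09) and 0.53 (SE 0.07). The lysyl hydroxylase gene Plod1 fell by 0.42 (SE 0.06). The single gene that rose was Sec23a, which encodes a coat protein of vesicles that leave the endoplasmic reticulum (1.39, SE 0.31, adjusted p = 0.00843). It read 6.04, 6.06 and 7.52 in wild type and 7.88 to 7.97 in the mutants, so wild-type replicates 1 and 2 lay below the detection limit and replicate 3 near the mutants. Of 4 detected genes on a list for collagen cross-linking, Pxdn, Lox, Loxl1 and Loxl2, only Pxdn passed, and 0 were called lower. That count was 1 without wild-type replicate 2, without wild-type replicate 3 or without mutant replicate 1, and 2 with median centring. Pxdn, the peroxidase that forms the bond between collagen IV trimers, rose by 0.22 (SE 0.07, adjusted p = 0.0401). Its means were 6.44 in wild type and 6.65 in the mutants, not far above the detection limit. Pxdn no longer passed in 5 of the 7 fits that left out 1 array, nor under median centring.

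Genes that build, trim or cleave the heparan sulfate chains carried by perlecan, agrin and collagen XVIII had 7 of 19 detected genes lower and 2 higher, with a median of -0.08. Genes of the linker that joins the chain to the core protein, Xylt2 (-0.63, SE 0.09) and B3gat3 (-0.48, SE 0.06), and the chain polymerase gene Ext1 (-0.58, SE 0.10) fell. Fam20b, the gene of a kinase that acts on the linker, rose by 0.34 (SE 0.06, adjusted p = 0.00201). The 7 include Sulf1, the gene of a sulfatase that removes sulfate groups from finished chains (-0.39, SE 0.10), and Hpse, the gene of heparanase, which cleaves the chains, did not pass (-0.11, SE 0.05, adjusted p = 0.151), both chosen after their values were seen. Without wild-type replicate 1 the list had 4 genes lower, and with wild-type replicate 3 standing alone for its group it had 2.

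Receptors had 3 of 11 detected genes lower and 2 higher, with a median of 0.02. The collagen receptor kinase genes Ddr1 (-0.90, SE 0.12, adjusted p = 0.000665) and Ddr2 (-0.72, SE 0.10) fell. Dag1, the gene of dystroglycan, which binds laminin, perlecan and agrin, rose by 0.31 (SE 0.07, adjusted p = 0.00999), as did the integrin gene Itgav by 0.29 (SE 0.08), whose mean in wild type, 6.15, was close to the limit of detection. The third lower gene, Itga1, a collagen-binding integrin chain chosen after its values were seen, went from 6.29 to 6.07, below that limit. When 1 array was left out, the list had 2 or 3 genes lower (2 in 5 of the 7 fits) and 1 or 2 higher (1 without mutant replicate 3 or without mutant replicate 4). Proteases and inhibitors that act on basement membranes had 3 of 10 detected genes lower and 2 higher, with a median of 0.13. Mmp2, a type IV collagenase, fell by 0.79 (SE 0.08) and its inhibitor gene Timp2 by 1.07 (SE 0.07). Mmp14, the membrane-bound protease that activates MMP2, rose by 0.46 (SE 0.07, adjusted p = 0.000935), and the cathepsin gene Ctsb rose by 0.31 (SE 0.05). With median centring 1 gene of the receptor list and 1 of the protease list were called higher.

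**Figure D3:**
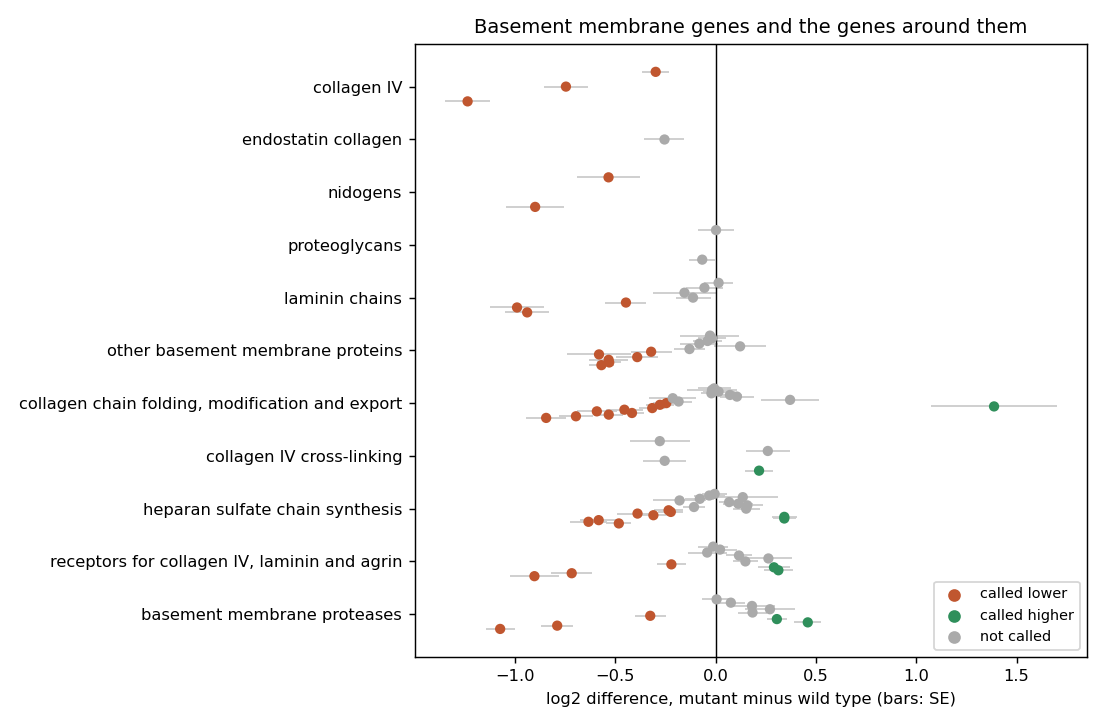
Log2 difference, mutant minus wild type, of every detected gene of each list, with SE bars, orange where called lower, green where called higher and grey where not called. Both nidogens and 3 collagen IV genes lie left of 0, both proteoglycans lie at 0, and the receptor and protease lists hold calls on both sides.

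Cell types that make or sit on basement membranes were read from marker lists, as sums of normalized intensity over detected genes. In bulk tissue, fewer cells of a type and less RNA per cell cannot be told apart. Over all 10087 genes 19.8% were called lower and 17.1% higher, the shares to hold beside each marker count. Endothelium markers had 6 of 17 detected genes lower and 0 higher, with summed levels of 6396 to 7171 in wild type and 5581 to 6821 in the mutants. Tie1 (-0.64, SE 0.06), Ets1 (-0.68, SE 0.07), Pecam1 (-0.79, SE 0.09) and Cdh5 (-1.32, SE 0.16) fell, and the defining marker Erg was not detected. The other 11 did not pass, and they went both ways. Among them were Ramp2 (0.30, SE 0.11), Flt1 (0.12, SE 0.07), Emcn (0.01, SE 0.11) and Vwf (-0.30, SE 0.11), chosen after their values were seen. With median centring 12 endothelium markers were lower. Pericyte and smooth muscle markers had 3 of 9 lower and 1 higher, with sums of 3808 to 6224 in wild type and 4987 to 6913 in the mutants. The brightest gene of that list, Acta2 (means of 11.85 and 12.17), weighed most in these sums and did not pass. Pdgfrb, the PDGF receptor of pericytes and other mesenchyme, fell by 1.70 (SE 0.13, adjusted p = 6.81e-05), Notch3 by 1.30 (SE 0.21) and Myh11 by 0.20 (SE 0.06) to a mutant mean of 6.04, below the detection limit, so that Myh11 passed the filter only through wild type. The count of 3 was 2 in 4 of the 7 fits that left out 1 array. By contrast, Des, a filament gene also of skeletal muscle, rose by 0.72 (SE 0.23), a call lost in 4 of the 7 fits that left out 1 array. Tagln, also of that list, was not detected.

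Epithelium markers had 2 of 11 higher and 0 lower, with sums of 8090 to 11720 in wild type and 7951 to 11610 in the mutants. The shares over all genes, 17.1% higher and 19.8% lower, stand beside this count and those that follow. Cdh1, the epithelial cadherin, rose by 0.56 (SE 0.09), and Esrp1 by 0.35 (SE 0.11, adjusted p = 0.0386). The count of 2 fell to 1 in 5 of the 7 fits that left out 1 array. With median centring it was also 1, and 2 epithelium markers were then called lower. Palate mesenchyme markers had 3 of 12 lower and 0 higher, with sums of 9917 to 13250 in wild type and 7627 to 8620 in the mutants, which did not overlap. Twist1 (-1.23, SE 0.09), Msx1 (-1.27, SE 0.25) and Osr2 (-0.42, SE 0.10) fell. The other 9 did not pass, and they went both ways. Among them were Osr1 (0.19, SE 0.21), Col1a2 (0.08, SE 0.13), Pax9 (0.02, SE 0.09) and Pdgfra (-0.14, SE 0.06), chosen after their values were seen. Msx1 and Osr2 were the brightest of the list in wild type (means of 11.58 and 11.36) and weighed most in its sums. With median centring 7 palate mesenchyme markers were lower. Neuron markers had 12 of 13 higher, with sums of 1958 to 3959 in wild type and 11000 to 15220 in the mutants, and Nefl and Snap25 were not detected. Elavl2 (1.88, SE 0.14), Isl1 (2.39, SE 0.24), Pou4f1 (1.43, SE 0.15) and Dcx (1.45, SE 0.15) rose. Skeletal muscle markers had 1 of 10 higher and sums of 3768 to 12010 and 10610 to 17440, glia markers had 1 of 4 higher and 1 lower, leukocyte markers 1 of 7 higher and 1 lower, and red cell markers 1 of 5 lower. The leukocyte marker called lower was lost in 4 of the 7 fits that left out 1 array, and red cell markers had 0 to 2 lower in those fits and 4 with median centring. Wild-type replicate 2 stood apart within its group in 3 of these sums. It was at 3768 for skeletal muscle (10870 and 12010 in the other wild-type arrays) and at 1958 for neurons (3959 and 3722). For the pericyte and smooth muscle list it was at 3808 (6224 and 6004). There Acta2, chosen after its values were seen, read 12.19, 11.18 and 12.20 in wild-type replicates 1 to 3. Pdgfrb (8.74, 8.72 and 8.47) and Notch3 (9.04, 9.14 and 8.13) were not lowest in wild-type replicate 2. The part of any of these cell types in the collagen IV and nidogen differences was not tested.

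**Figure D4:**
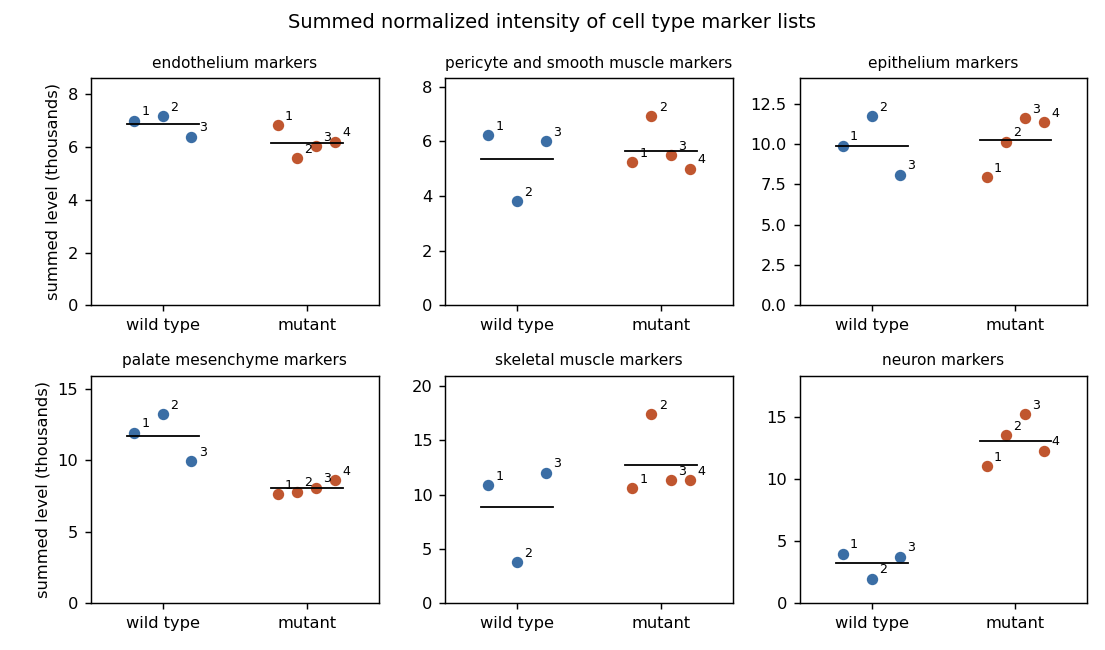
Summed normalized intensity (scale as labelled on the axis) of the detected genes of 6 marker lists in each array, with replicate numbers beside the points and a line at each group's mean. Neuron and palate mesenchyme sums separate the groups in opposite directions, whereas endothelium, pericyte, epithelium and muscle sums overlap.

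Over the 7 arrays the pattern of Col4a1 was most like that of Dlst, Atp9b and Ckap5 (Pearson r = 0.998, 0.997 and 0.997), and Col4a2 ranked 102 of 10086 genes in that order (r = 0.984). Col4a2 was most like Eif2b5, Atrip and Tmem94 (r = 0.999, 0.998 and 0.998), with Col4a1 at rank 188. Nid2 was nearest to Ccdc77, Reck and Dnajc5, with Col4a2 at rank 262 (r = 0.945), and Nid1 to Dad1, Gpc4 and Pitx1, with Nid2 at rank 347 (r = 0.868). Col4a5 was nearest to Adamts15, Cdc25b and Trpm5, and Col18a1 to Slc26a10, Homez and Zfp207, with Col4a1 at rank 262. Hspg2 was nearest to Plxna2, Ptgfrn and Kcnma1, and its correlations with Col4a1 and Col4a2 were 0.23 and 0.17. Agrn was nearest to Polrmt, Cdan1 and Tnfaip8, with Col18a1 at rank 112 (r = 0.810). These correlations describe 7 points in 2 groups, so a shared difference between the groups alone brings genes close.

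**Figure D5:**
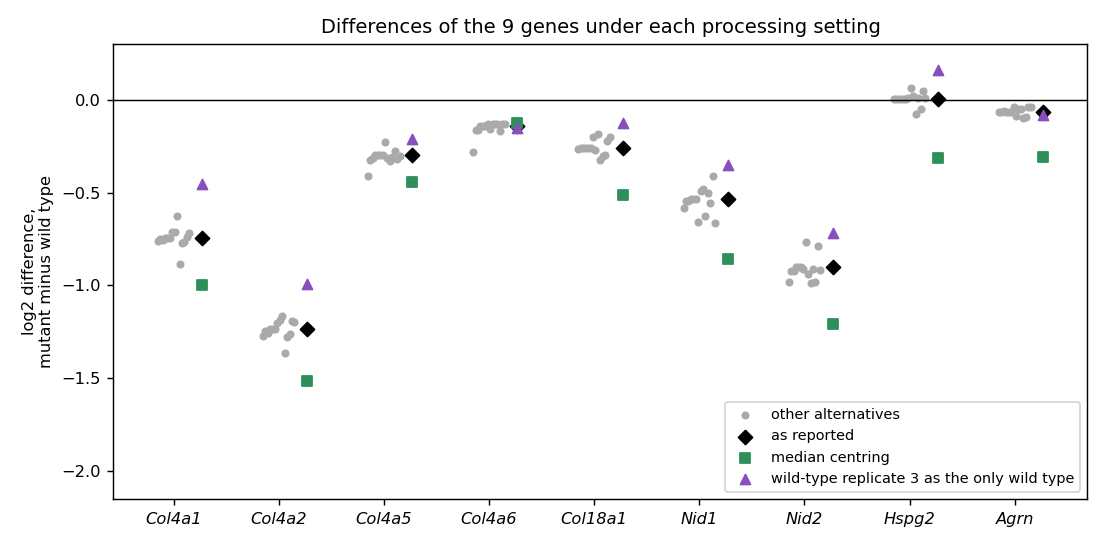
Log2 difference, mutant minus wild type, of the 9 genes as reported (black), with arrays centred on their medians (green), with wild-type replicate 3 alone against the mutants (purple) and under the other alternatives (grey). Col4a1, Col4a2, Col4a5, Nid1 and Nid2 lie below 0 under each, and Hspg2 lies from -0.32 to 0.16.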

How the data were processed

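An RNeasy kit was used to isolate RNA, and a TotalPrep kit to make labelled cRNA, per the labels' protocols. The deposited file of each sample holds linear probe intensity, not normalized between arrays. A series table of the authors gives log2 values for these arrays, whose columns share a minimum of 5.165 and a maximum of 14.69 and keep each array's ranks (Spearman 1). Its scale and direction are thus known. For its method, the scanner software, any background step and the genome build, the status is "not given in the sources used here".

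Probe IDs with identical intensities on all 7 arrays were treated as 1 feature, which left 18116 features from 25695 probe IDs. The 9 genes had 13 probe IDs. The platform annotation names 1 gene for 23976 probe IDs and no gene for 1719. Background was corrected by normexp with an offset of 50, and log2 values were then quantile-normalized. Features with a mean above the 40th percentile (6.10) counted as detected. Groups were compared with limma 3.58.1 in R 4.3.3 (lmFit and eBayes, two-sided, no covariate) at a threshold of 0.05 after Benjamini-Hochberg adjustment across the 10869 detected features, and with the exact two-sided permutation test over 35 splits for single values. Values printed as ± are SD, and differences are mutant minus wild type. The fit was tested on simulated data. The design text describes separate embryos, so replicates are biological, and the number of arrays limits precision.

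For lists, 1 feature per gene (the highest mean) was used, and up to 4 genes past the threshold by smallest p were named, or otherwise the 2 with the smallest p, with the exceptions stated. Likeness was Pearson's r over the 7 arrays. The genes and lists were chosen with earlier results of these data known. Alternatives changed the background step, normalization, filter, variance model, source of values, replicate block and arrays used.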

Additional observations from a re-analysis of the deposited data

Results flagged for a closer look

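Col4a6 in mutant replicate 2 read 6.105 log2 units, apart from the other mutant arrays at 5.99 to 6.00 and close to the detection limit of 6.10. The gap to its neighbour was 0.898 of the range of the 4 mutant arrays, above Dixon's 95% critical value for 4 samples. Such a test singles out about 1 group in 20 by chance, and 9 mutant groups were tested here, 1 for each gene.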

How the results depend on the processing

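Each result was recomputed under 16 alternatives. Col4a1, Col4a2 and Nid2 passed as lower in all of them, with log2 differences of -1.0 to -0.45, -1.51 to -0.99 and -1.21 to -0.72. Col4a5 lost its call in 1 and Nid1 in 4, with ranges of -0.45 to -0.21 and -0.86 to -0.35 (adjusted p up to 0.142 and 0.355). The count of these genes called lower was 4 to 6 when 1 array was left out, against 5 with all arrays, and 7 with median centring. With median centring, 4633 features passed in place of 3995, and 83.6% of calls were lower in place of 53.9%. The lists around the basement membrane then had 4 genes called higher in place of 8, and the difference between the changes of Col4a5 and Col4a6 was -0.32, with Col4a6 at the detection limit. With wild-type replicate 3 alone against the mutants, 1755 features passed, 3 of the 9 genes and 17 list genes were lower (31 with all arrays), 4 list genes were higher, and the change of Hspg2 exceeded that of Agrn by 0.25. Fits that left out 1 array gave 2953 to 4313 features, 23 to 34 list genes lower and 6 to 8 higher. The causes were not tested. Replicate numbers did not pair the arrays (correlations of deviations -0.199, -0.162 and 0.0645 for numbers 1 to 3). The replicate block, which drops mutant replicate 4, gave 2856 features and the same 5 genes lower. Genes near the limit of 6.10, such as Col4a6 (-0.28 with a normexp offset of 16), have differences that depend on the background step.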
